A study of Macaca mulatta with 6 samples.

Results

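Collagens, laminins, integrins and 5 further matrix genes (FN1, TNC, TNR, VCAN and BCAN) were followed in laser captures of serotonin neurons. These were taken from sections of the dorsal raphe nucleus of female rhesus macaques. Members were chosen by gene symbol alone: every probe set with exactly 1 symbol in the platform annotation whose symbol names a collagen, laminin or integrin chain or one of the 5 genes. That gave 141 probe sets of 69 genes, among 52766 probe sets that are not controls and 24956 with 1 symbol. They held 35 collagen genes on 60 probe sets, 9 laminin genes on 20, 20 integrin genes on 50 and the 5 further genes on 11.

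The arrays came from 6 monkeys, 1 array each. There were 2 monkeys given estrogen and progesterone, 2 given estrogen and 2 given placebo. The steroids were crystals in Silastic capsules kept under the skin for 1 month, and the labels do not say what the placebo animals carried. The placebo titles carry the tag Ovx, the usual short form of ovariectomized, and the titles of the hormone groups name only the treatment. The labels give no age. Monkeys were the replicates, and with 2 in a group the precision of all differences is low.

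Collagens are trimeric proteins of the extracellular matrix. Fibrillar chains form the cables of connective tissue, network chains such as those of type IV form the sheet of basement membranes, and fibril-associated chains bind along fibrils. Laminins are cross-shaped trimers of an alpha, a beta and a gamma chain that give basement membranes their second network. Integrins are receptors of 1 alpha and 1 beta subunit that bind these proteins outside the cell and the actin cytoskeleton inside it. In brain, classical collagens and laminins lie mainly around blood vessels and in the meninges, while the space between neurons holds the lecticans BCAN and VCAN with the tenascins TNC and TNR.

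Background differed between arrays. It was taken as a floor, the 95th percentile of the signals that 59 bacterial and tag-sequence controls gave on the same array. The floor lay at signals of 74.9 and 283 on estrogen+progesterone 1 and 2, 29.99 and 51.6 on estrogen 1 and 2, and 216 and 221 on placebo 1 and 2. Estrogen+progesterone 1 and both estrogen arrays are called high-signal arrays below, and the other 3 low-signal arrays, a grouping made from the share of all probe sets above the floor after the values were seen. A 3′ GAPDH control probe set gave 21.97 and 287 times the signal of the 5′ one with both hormones. The ratios were 28.0 and 3.41 with estrogen and 2374 and 1413 with placebo. For actin they were 33.9 and 20.2, 31.3 and 10.9, and 523 and 298 in the same order. Such ratios rise with loss of the 5′ end of transcripts. On the 3 low-signal arrays, however, the 5′ signals of both controls were under the floor, so background enters the ratios there. GAPDH and actin ranked the arrays of both hormones in opposite order. Estrogen+progesterone 2 stood apart from its partner in its floor and in its share of probe sets above the floor. Medians and differences of both hormones are therefore given with and without that array. Because each array had been scaled by the authors to the same trimmed mean, equal signals on 2 arrays need not be equal levels, and the log2 differences below are on quantile-normalized log2(signal + 16) values.

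Fewer matrix and integrin probe sets were above background on the low-signal arrays, as for probe sets in general. Of the 141 member probe sets, 70 and 31 were above the floor on estrogen+progesterone 1 and 2, 94 and 79 on estrogen 1 and 2, and 44 and 46 on placebo 1 and 2. As shares these were 49.6% and 21.99% with both hormones, 66.7% and 56.0% with estrogen, and 31.2% and 32.6% with placebo, next to 49.6% and 28.7%, 62.2% and 58.5%, and 37.3% and 36.3% of all probe sets on the same arrays. At least 1 probe set passed the floor on some array for 68 of the 69 genes, the exception being COL20A1. On all 6 arrays it was passed by 12 probe sets of 11 genes, or 8.51% of the member probe sets against 10.1% of all.

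The classes differed in where they passed the floor. Laminin probe sets above it numbered 8 and 3 of 20 with both hormones, 11 and 7 with estrogen, and 1 and 3 with placebo. Integrin probe sets numbered 25 and 7 of 50 with both hormones, 32 and 28 with estrogen, and 13 and 14 with placebo. Collagen probe sets numbered 29 and 17 of 60 with both hormones, 43 and 35 with estrogen, and 26 and 24 with placebo. Of the 20 member probe sets that passed it on each of the 3 high-signal arrays and on no low-signal array, 6 were laminin, 8 integrin, 4 collagen and 2 others. Such probe sets were 14.2% of the members and 8.30% of all probe sets.

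**Figure D1:**
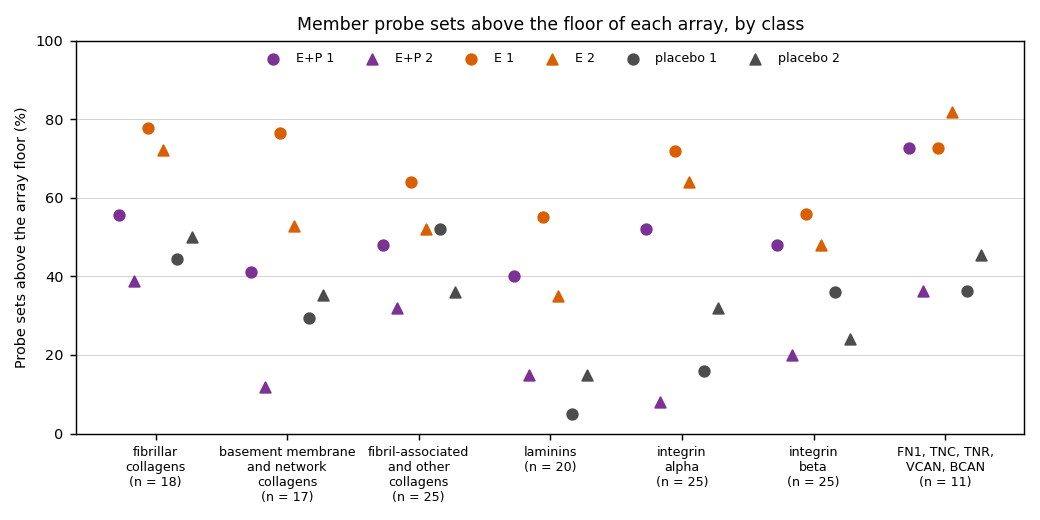
Share of the member probe sets of each class (x axis, with the number of probe sets) whose deposited signal was above the floor of the array (y axis, %); each point is 1 array, coloured by treatment. In every class both estrogen arrays lie above estrogen+progesterone 2, and in every class but the fibril-associated collagens they also lie above both placebo arrays.

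The probe sets above the floor on all 6 arrays were those of the fibril-associated chains COL9A2 and COL9A3, the fibrillar chains COL11A1, COL11A2, COL5A3 and, with a second probe set, COL5A2, the lectican BCAN, VCAN with 2 probe sets, the laminin gamma chain LAMC1, the integrin subunit ITGB3, and a second probe set of ITGB8. COL9A2, a chain of the type IX collagen that decorates cartilage fibrils, gave signals of 654 and 541 with both hormones, 704 and 799 with estrogen, and 956 and 769 with placebo. COL9A3, another chain of the same trimer, gave 716 and 419 with both hormones, 847 and 465 with estrogen, and 602 and 1046 with placebo. In signal, both COL9A2 values with both hormones and 1 of the 2 with estrogen lay below both placebo values, and the COL9A3 groups overlapped. After normalization the placebo values of both genes lay above those of the other groups. LAMC1, the gamma chain of most laminins, gave 345 and 377 with both hormones, 337 and 280.1 with estrogen, and 252 and 357 with placebo, with overlap between the estrogen and placebo groups. BCAN, brevican of perineuronal nets and astrocytes, gave 431 and 383 with both hormones, 385 and 292 with estrogen, and 411 and 396 with placebo, a narrow range beside floors that differed several-fold.

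**Figure D2:**
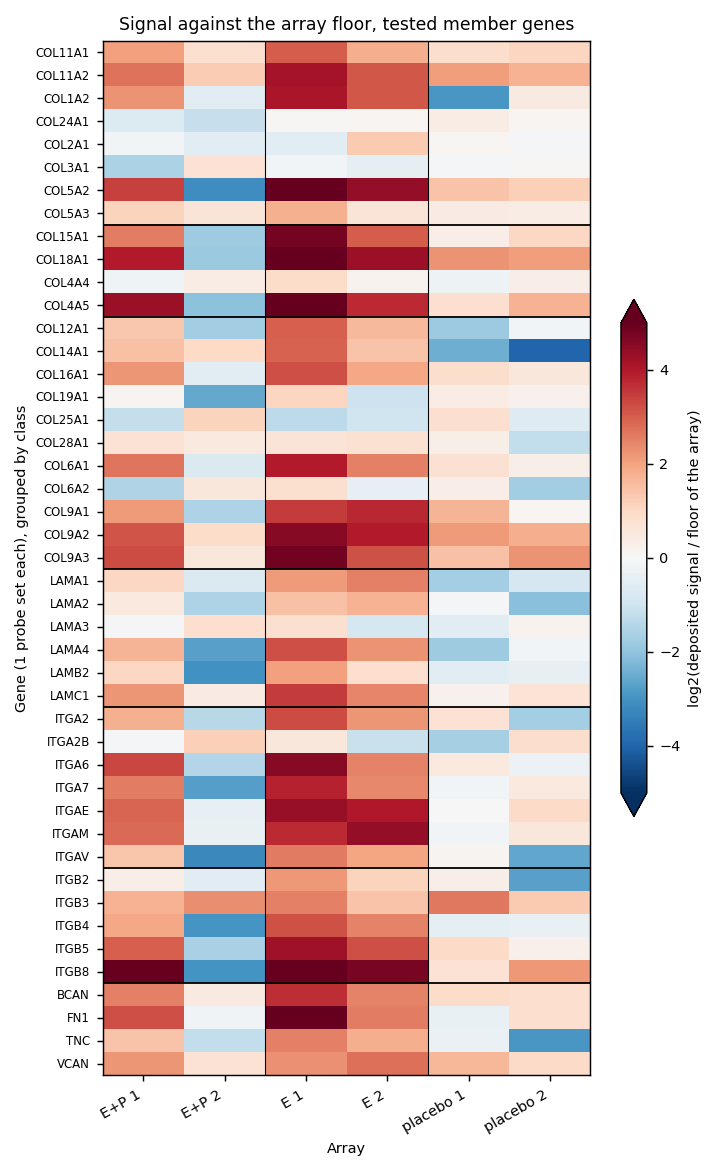
Log2 of the deposited signal over the floor of the array (colour) for the 45 tested member genes (rows, 1 probe set each, grouped from top to bottom as fibrillar, basement membrane and network, and other collagens, laminins, integrin alpha subunits, integrin beta subunits and the further genes) on the 6 arrays (columns). Most rows are red on E+P 1, E 1 and E 2 and pale or blue on E+P 2 and both placebo arrays.

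Probe sets were tested if their mean normalized value was at or above the 50th percentile, which kept 65 of the 141 member probe sets and 45 of the 69 genes: 23 collagen, 6 laminin, 12 integrin and 4 further genes. The 24 genes left out include COL1A1, TNR, ITGB1, ITGA1, ITGA3, ITGA8 and LAMB1. ITGB1, the beta subunit shared by most integrins, gave 68.0 and 192 with both hormones, 62.8 and 81.9 with estrogen, and 17.3 and 15.9 with placebo, and was above the floor on the estrogen arrays alone. COL1A1, the main chain of type I collagen, was above it on estrogen 2 alone, at 95.01, and TNR, the tenascin of perineuronal nets, on estrogen+progesterone 1 alone, at 84.8. Of the 24 genes, COL21A1, ITGA8, ITGB7 and LAMB1 had a probe set that passed it on each of the 3 high-signal arrays. LAMB1, the beta chain of most laminins, gave 81.3 and 109 with both hormones, 75.6 and 131 with estrogen, and 141 and 59.7 with placebo. ITGA8, a receptor subunit for fibronectin and nephronectin, gave 87.2 and 66.9 with both hormones, 148 and 95.9 with estrogen, and 27.0 and 13.8 with placebo, so its groups did not overlap in signal, with the low-signal values all below the floor. A second ITGA8 probe set was below the floor on all 6 arrays. COL4A1 and COL4A2, the common type IV chains, had no probe set with a single symbol.

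The first comparison asks how transcript levels in the captured tissue differed between estrogen and placebo. Integrins and laminins mostly stood above 0 and collagens mostly below, and no member passed the test. Of 12 tested integrin genes 10 were above 0 with a median log2 difference of 1.04, of 6 laminin genes 5 were, with a median of 0.83, and of 23 collagen genes 8 were, with a median of -0.55. The same count over all 9781 genes with a tested probe set was 5925, or 60.6%, with a median of 0.28. Within the collagens the fibrillar chains gave 2 of 8 above 0 and a median of -0.84, the basement membrane and network chains 2 of 4 and -0.14, and the other chains 4 of 11 and -0.30. On the normalized scale the floor itself lay at 6.38 and 6.55 on estrogen 1 and 2, and at 7.40 and 7.44 on placebo 1 and 2. A probe set at the floor in both groups would thus stand below 0. The part of this shift in the collagen medians was not tested. Relative to the median of all genes, the collagen median was -0.83 after quantile normalization and -0.81 without normalization. The integrin median was 0.76 and 0.43. Median-centred arrays give the same relative values as no normalization by construction, since centring shifts all genes of an array equally. For laminins the relative median was 0.55 after quantile normalization and -0.16 without normalization, so their side of the all-gene median depends on the scaling. With median-centred arrays, where the median of all genes was 1.49, COL9A2, COL9A3, COL11A1, COL11A2, COL18A1, VCAN and BCAN also stood above 0, at 0.04 to 1.73, although each was below 0 after quantile normalization. Cell type markers, on the same scale, stood above 0 for 6 of 6 tested astrocyte genes (median 1.47) and 5 of 6 pericyte, smooth muscle and fibroblast genes (1.38). So did 2 of 2 oligodendrocyte genes (0.88), 2 of 3 general neuron genes (1.14) and 1 of 3 serotonin neuron genes (-0.23). For endothelial genes the count was 2 of 6 (-0.13) and for microglial genes 3 of 9 (-0.44). The part of these cell types in the class medians was not tested. Both estrogen arrays were high-signal and both placebo arrays low-signal, and an effect of estrogen and one of array quality cannot be told apart in this contrast.

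COL14A1, a fibril-associated collagen, gave signals of 229 and 138 with estrogen and 39.4 and 14.3 with placebo. Both estrogen values were above the floor and both placebo values below it. Only a bound holds, at least 1.38-fold higher with estrogen on the normalized scale, which all bounds below use. In deposited signal the placebo floors were 216 and 221, above the estrogen value of 138. This bound thus depends on the normalization. Its log2 difference was 2.89 ± 0.91 (SE, n = 2 monkeys per group; adjusted p = 0.635 from limma). The other 3 COL14A1 probe sets stood at 2.14, -0.22 and -2.55. The last of these gave 10.1 and 33.5 with estrogen and 350.1 and 279.7 with placebo, so probe sets of the same gene pointed in opposite directions. COL1A2, a chain of type I collagen, gave 513 and 443 with estrogen and 29.0 and 299.7 with placebo, a log2 difference of 2.18 ± 1.10. Its groups did not overlap, but the placebo values lay on both sides of their floor. A second COL1A2 probe set stood at 1.29. COL12A1, which like COL14A1 binds along fibrils, gave 235 and 158 with estrogen and 61.3 and 200.1 with placebo. Its log2 difference was 1.43 ± 0.96, with a bound of at least 1.45-fold higher. Its lower estrogen signal was likewise below the placebo floors.

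LAMA1, a laminin alpha chain of early basement membranes, gave 129.7 and 292 with estrogen and 66.4 and 123 with placebo, at 1.80 ± 0.84 on the log2 scale. LAMA4, the alpha chain of vessel walls, gave 282 and 243 with estrogen and 62.1 and 199.6 with placebo, at 1.71 ± 1.07. LAMA2, the alpha chain of muscle and glial basement membranes, gave 83.6 and 170.3 with estrogen and 209.9 and 52.0 with placebo, at 1.08 ± 0.92. All 3 were above the floor on both estrogen arrays and below it on both placebo arrays. After normalization the bounds were at least 1.51-fold, 1.76-fold and 1.12-fold higher. In deposited signal both LAMA2 values with estrogen, and the LAMA1 value of 129.7, were below the placebo floors of 216 and 221. The bounds of LAMA1 and LAMA2 thus depend on the normalization. LAMC1 stood at 0.24 ± 0.82. TNC, a tenascin of developing and injured tissue, gave 171 and 184 with estrogen and 173 and 29.4 with placebo. After normalization it stood at 1.84 ± 0.96 with a bound of at least 1.40-fold higher. In deposited signal both TNC values with estrogen were below the placebo floors, so this bound too depends on the normalization. FN1, fibronectin, gave 1152 and 303 with estrogen and 167 and 390.3 with placebo, overlapping groups at 1.13 ± 1.02.

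Among integrins, ITGAM, the alpha subunit of the complement receptor of microglia, gave 399.9 and 1083 with estrogen and 194 and 328 with placebo, at 1.38 ± 0.95. Its partner ITGB2 gave 136 and 112 with estrogen and 263 and 33.8 with placebo, at 1.04 ± 0.99 with overlapping groups. ITGAV, the alpha subunit of several fibronectin and vitronectin receptors, gave 180.4 and 204 with estrogen and 238 and 36.02 with placebo, at 1.53 ± 1.16 after normalization. ITGB8, which pairs with ITGAV to release active transforming growth factor beta and is found on astrocytes, gave 4677 and 1380.2 with estrogen and 359 and 986 with placebo. Its log2 difference was 1.15 ± 1.63 with overlap after normalization, and the second tested ITGB8 probe set stood at -0.92. ITGB4, a laminin receptor subunit, gave 269.9 and 289 with estrogen and 158 and 172 with placebo, at 1.37 ± 1.07 with a bound of at least 1.85-fold, and its second tested probe set stood at -1.09. The other tested integrin genes were ITGA6 at 1.13, ITGAE at 1.04, ITGA2 at 0.98, ITGA7 at 0.77, ITGB5 at 0.49 and ITGA2B, the platelet alpha subunit, at -1.16. ITGB3, which pairs with ITGAV and ITGA2B, gave 172 and 139.8 with estrogen and 1348 and 554 with placebo, at -2.45 ± 1.25. Set against its own array's floor, the ITGB3 signal was 5.73 and 2.71 times that floor with estrogen and 6.25 and 2.51 times with placebo, so these ranges overlap.

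Below 0 with estrogen by the naming rule were also COL25A1, a transmembrane collagen of neurons, at -2.06 ± 1.31, COL19A1, a fibril-associated chain, at -1.44 ± 0.92, COL11A2, a chain of the cartilage fibril type XI, at -1.38 ± 0.88, VCAN, versican, at -1.30 ± 0.85, COL24A1, a fibrillar chain, at -1.24 ± 0.80, COL3A1, the type III chain, at -1.21 ± 1.13, and COL9A3 at -1.03 ± 0.83. Both estrogen values of COL25A1 and of COL3A1 were under the floor, and each gene was above it on 1 placebo array. The bound for COL25A1 was at least 2.34-fold lower. COL3A1 has no usable bound, since its normalized placebo mean of 7.42 lay at the normalized placebo floors of 7.40 and 7.44. As multiples of the floor, COL11A2 gave 17.9 and 8.65 with estrogen and 4.28 and 3.36 with placebo. COL9A3 gave 28.2 and 9.02 against 2.79 and 4.74, and VCAN 4.92 and 6.67 against 3.20 and 1.93, so the estrogen values of these genes were the higher ones. On that measure COL25A1 gave 0.41 and 0.51 with estrogen and 1.72 and 0.64 with placebo. COL24A1 gave 1.05 and 1.07 against 1.29 and 1.08, and COL3A1 0.91 and 0.73 against 0.96 and 1.04. The estrogen values of these genes were the lower ones, but all values of COL24A1 and COL3A1 lay near the floor, at 0.73 to 1.29 times it. COL19A1 overlapped. COL3A1 gave 27.4 and 37.5 with estrogen and 207 and 229.8 with placebo, close to the placebo floors of 216 and 221. VCAN gave 148 and 344 with estrogen and 690.5 and 426 with placebo, while another VCAN probe set gave 1114 and 643 with estrogen and 408 and 473 with placebo and stood at 0.34 ± 1.09. Genes close to 0 included COL5A2 at 0.24, COL9A1 at 0.11, COL4A5, a basement membrane chain, at 0.27, and COL28A1 at -0.04. COL9A2 and COL11A1 stood at -0.99 and -0.94, COL18A1, the source of endostatin, at -0.55 and BCAN at -0.39.

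A second BCAN probe set gave 249.9 and 244 with both hormones, 118 and 369.8 with estrogen, and 44.0 and 14.2 with placebo. Against placebo its log2 differences were 3.04 ± 0.86 with estrogen and 2.81 ± 0.86 with both hormones (3.19 ± 0.77 without estrogen+progesterone 2), with adjusted p of 0.635 and 0.992 from limma. This probe set was chosen after its values were seen. Its placebo values were below the floor, and so was its value on estrogen+progesterone 2. The bounds were at least 1.59-fold higher with estrogen and 1.36-fold with both hormones, the latter including that value under the floor. In deposited signal the estrogen value of 118 was below the placebo floors of 216 and 221, so the estrogen bound depends on the normalization. The BCAN probe set with the higher mean stood at -0.39 and -0.15. The pair thus differ in what they report for the same gene.

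Across the 26383 tested probe sets limma called 0, or 0%, at adjusted p under 0.05 in this comparison, and 0 of the 65 member probe sets. At an unadjusted p under 0.05 it counted 3 of the 65 members, 4.62%, against a background of 7.83%; these were the second BCAN and 2 COL14A1 probe sets of opposite sign. Adjusted p from limma ran from 0.635 for COL14A1 to 0.993 for COL28A1 over the 45 genes. Groups did not overlap for 15 of the 45 member genes in the upward direction and 15 in the downward direction, where the backgrounds over all genes were 30.6% and 19.8%. Without estrogen+progesterone 2, which enters the estimate of the spread, 13 of 65 member probe sets had an unadjusted p under 0.05, 20.0%, against 19.4% of all, and again 0 passed after adjustment.

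**Figure D3:**
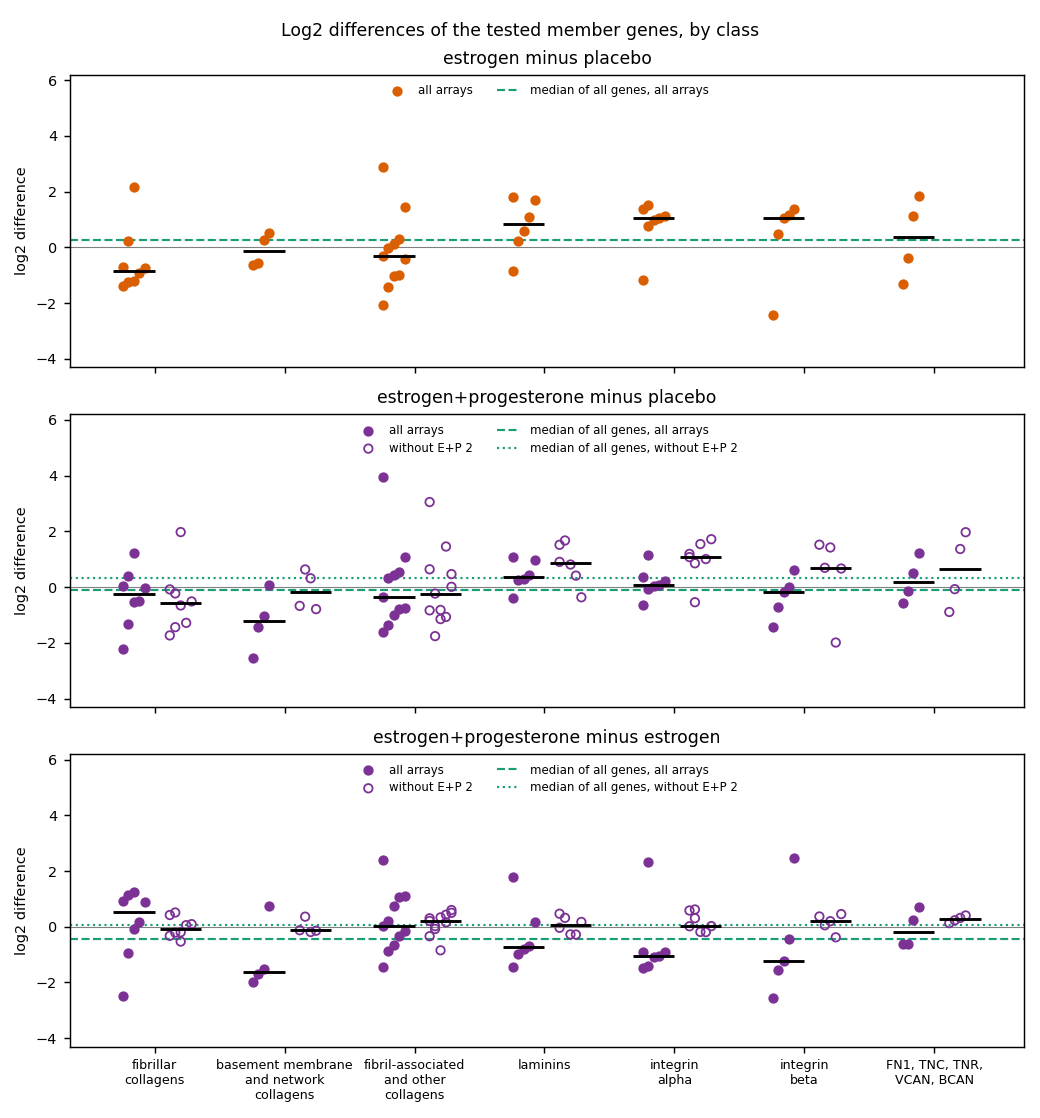
Log2 difference (y axis, normalized log2(signal + 16) scale) of each of the 45 tested member genes by class (x axis) in the 3 comparisons (panels); bars are class medians, filled points use all arrays, and open points leave out estrogen+progesterone 2. In the upper panel integrin medians lie near 1 and the fibrillar collagen median below 0; in the lower panel the open points of all classes lie between -1 and 1.

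In 15 member genes more than 1 probe set was tested. All probe sets of a gene had the same sign for estrogen minus placebo in 8 of the 15, or 53.3%, against 52.2% of the 3276 genes on the array with several tested probe sets. With both hormones against placebo they did so in 6 of 15, and 41.3% of all such genes, and with both hormones against estrogen in 6 of 15, and 53.3% of all. Probe sets kept 1 sign with estrogen for COL1A2, COL5A2, ITGA2, ITGA6, ITGA7 and ITGB5, all above 0, and for COL18A1 and ITGB3, all below it. Those of BCAN, COL11A2, COL14A1, COL4A5, ITGB4, ITGB8 and VCAN had both signs.

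**Figure D4:**
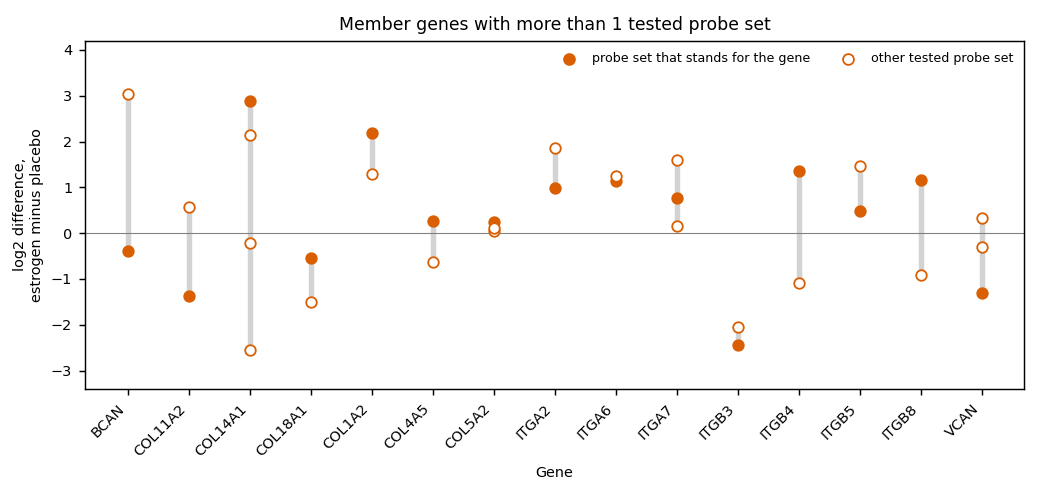
Log2 difference of estrogen minus placebo (y axis) for every tested probe set of the 15 member genes with more than 1 (x axis); filled points mark the probe set that stands for the gene. For COL14A1 the probe sets span -2.55 to 2.89 and for BCAN -0.39 to 3.04.

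Both hormones were set against placebo to ask the same of estrogen with progesterone, and here the class medians of integrins and laminins stood nearer to 0. Of 12 integrin genes 7 were above 0 with a median of 0.03, of 6 laminin genes 5 with a median of 0.36, and of 23 collagen genes 9 with a median of -0.48, where 4517 of all 9781 genes were above 0 and their median was -0.10. Without estrogen+progesterone 2 the counts were 10 of 12 integrins with a median of 1.04, 5 of 6 laminins with 0.86, and 8 of 23 collagens with -0.52, against a median of 0.31 for all genes. The side on which laminins lay turned with the scaling here too. Relative to all genes their median without that array was 0.55 after quantile normalization and -0.13 without normalization, where 3 of 6 were above 0. The integrin median relative to all genes was 0.73 and 0.56 in the same order. Astrocyte markers stood above 0 for 3 of 6 genes over all arrays and 6 of 6 without estrogen+progesterone 2 (median 1.07), and pericyte, smooth muscle and fibroblast markers for 5 of 6 both ways (0.39 and 1.69). The array estrogen+progesterone 2 alone, set against the placebo mean, gave 3 of 12 integrins above 0 with a median of -1.12.

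COL14A1 gave signals of 206 and 560.4 with both hormones and 39.4 and 14.3 with placebo, at 3.94 ± 0.91 (SE, n = 2 monkeys per group; adjusted p = 0.992 from limma). Both values with both hormones were above the floor, and the bound was at least 2.86-fold higher. In deposited signal the value of 206 was below the placebo floors of 216 and 221, so this bound too depends on the normalization. Without estrogen+progesterone 2 the difference was 3.05 ± 0.72 with adjusted p = 0.384. The other COL14A1 probe sets stood at 1.27, -0.43 and -1.43 over all arrays, and at 2.66, -0.18 and -2.84 without it. LAMA1 gave 152 and 169 with both hormones against 66.4 and 123 with placebo, at 1.09 ± 0.84 over all arrays and 1.52 ± 0.72 without the second array. Of these LAMA1 signals only the 152 on estrogen+progesterone 1 was above the floor of its own array, and it was below the placebo floors of 216 and 221.

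COL18A1 gave 1180.5 and 77.1 with both hormones and 1019.8 and 940.03 with placebo, at -2.54 ± 1.16. The value on estrogen+progesterone 2 was far below the rest, and without that array the difference was -0.68 ± 0.67. COL19A1 stood at -1.61 ± 0.92 and without that array at -0.84, COL24A1 at -1.32 ± 0.80 and -1.44, and COL9A3 at -1.004 ± 0.83 and -0.82. COL24A1 was below the floor on both arrays of both hormones and above it on both placebo arrays, at least 1.34-fold lower. ITGB3, far below 0 with estrogen, stood at 0.02 over all arrays and at -1.99 ± 0.82 without estrogen+progesterone 2. ITGB8 stood at -1.42 ± 1.63 over all arrays and 1.52 ± 1.02 without it, with signals of 3571 and 35.2 with both hormones and 359 and 986 with placebo.

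Limma called 0 of 26383 probe sets, 0%, in this comparison and 0 of the 65 members, whose adjusted p was 0.992 or higher. At an unadjusted p under 0.05 it counted 2 of the 65 members, 3.08%, the COL14A1 and second BCAN probe sets, against a background of 3.30%. Without estrogen+progesterone 2 it counted 5 of 65, 7.69%, against 11.0%, and 0 passed after adjustment. Member genes whose groups did not overlap numbered 2 upward and 7 downward of 45, where the backgrounds were 11.7% and 12.7%.

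The comparison of both hormones with estrogen asks what progesterone adds. Over all arrays 2 of 12 integrin genes were above 0 with a median of -1.06, 2 of 6 laminin genes with -0.74, and 12 of 23 collagen genes with 0.03, where 3326 of all 9781 genes were above 0 and their median was -0.44. Without estrogen+progesterone 2, which leaves 3 high-signal arrays in this contrast, the medians were 0.13 for integrins, 0.07 for laminins and 0.06 for collagens, and 0.05 for all genes. Relative to all genes the laminin median over all arrays was -0.30 after quantile normalization and 0.05 without normalization. Astrocyte markers were above 0 for 0 of 6 genes over all arrays (median -1.37) and 2 of 6 without estrogen+progesterone 2 (-0.15). Without that array all 45 member genes lay between -0.85 for COL6A2 and 0.62 for ITGA2B.

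ITGB3 gave 249 and 1404 with both hormones and 172 and 139.8 with estrogen, at 2.46 ± 1.25 (SE, n = 2 monkeys per group; adjusted p = 0.799 from limma) and 0.45 ± 0.82 without estrogen+progesterone 2. COL5A2, a fibrillar chain that helps set fibril width, gave 792 and 32.8 with both hormones and 1189 and 1081 with estrogen, at -2.47 ± 1.25 and at -0.32 without that array. COL25A1 gave 32.5 and 611 with both hormones and 12.2 and 26.1 with estrogen, at 2.40 ± 1.31 and 0.30 without it. ITGA2B stood at 2.32 ± 1.32 and 0.62, COL5A3 at 1.14 ± 0.85 and 0.51, and COL28A1 at 1.12 ± 0.91 and 0.50. For each of these 6 genes estrogen+progesterone 2 lay farther from the estrogen arrays than estrogen+progesterone 1 did. When that low-signal array was the only one of both hormones in the fit, limma called 10 of the 65 members and 4200 of all 26383 probe sets.

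Limma called 0 of 26383 probe sets, 0%, over all arrays, and 0 members. At an unadjusted p under 0.05 it counted 0 of 65 members, against 1.76% of all probe sets, and without estrogen+progesterone 2 again 0, against 0.815%. Groups did not overlap for 10 member genes upward and 4 downward of 45, where the backgrounds were 13.5% and 17.9%.

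Levels of the 65 tested member probe sets ran closely together on the 3 high-signal arrays. Across these probe sets estrogen+progesterone 1 correlated with estrogen 1 at r = 0.930 and with estrogen 2 at 0.847, and the estrogen arrays with each other at 0.818. Over all 26383 tested probe sets these values were 0.913, 0.842 and 0.862. Estrogen+progesterone 2 correlated with estrogen+progesterone 1 at -0.257 and with the estrogen arrays at -0.322 and -0.318, and the placebo pair at 0.473. Over all tested probe sets these were 0.0005, -0.050, -0.041 and 0.518 in the same order. These values are a description across probe sets, which are not independent and share probe brightness on every array.

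**Figure D5:**
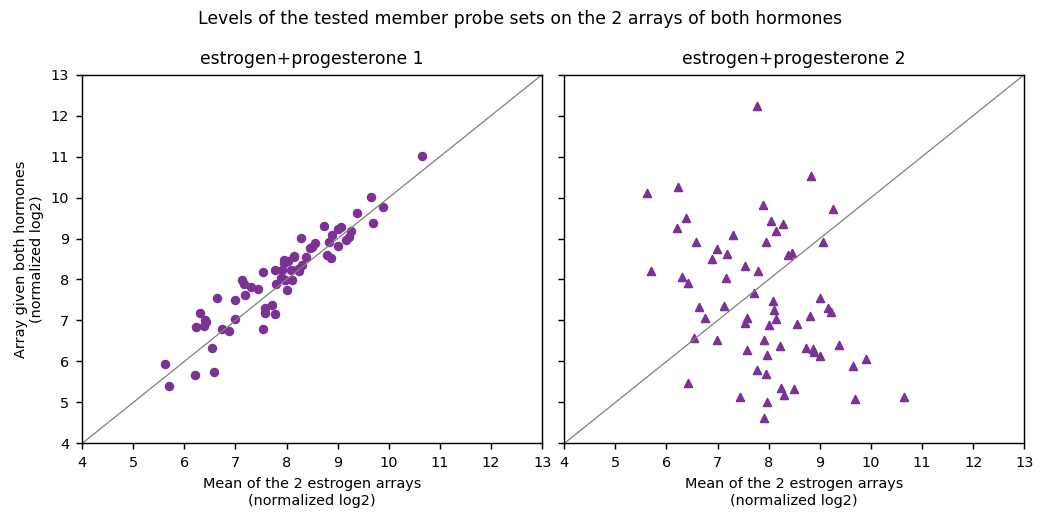
Normalized log2 level of the 65 tested member probe sets on each array of both hormones (y axis, 1 panel per array) against the mean of the 2 estrogen arrays (x axis); the line marks equal values. On estrogen+progesterone 1 the points follow the line, and on estrogen+progesterone 2 they do not.

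Genes that act with the members were followed in 4 lists, and none of their genes passed the test in any comparison. The genes named from them were picked after their values were seen. For estrogen minus placebo, collagen processing enzymes were above 0 for 11 of 15 tested genes (median 0.79), with P4HB, a subunit of the prolyl hydroxylase of collagen, at 2.75 ± 1.03 and LOXL2, a crosslinking oxidase, at -1.66 ± 0.86. Other matrix proteins were above 0 for 10 of 15 (0.80), with DAG1, the dystroglycan receptor of laminins, at 2.10 ± 0.98 and the small proteoglycans DCN at 1.76 ± 0.82 and BGN at -1.81 ± 0.92. The integrin adhesion machinery was above 0 for 16 of 22 (0.29), with the adaptor PXN at 1.86 ± 0.98 and the kinase-like scaffold ILK at 1.82 ± 1.24. Matrix proteases and their inhibitors were above 0 for 5 of 11 (-0.19), with ADAMTS1 at 1.59 ± 0.84 and ADAMTS4 at -1.63 ± 0.90. For both hormones minus placebo the counts above 0 were 10 of 15, 10 of 15, 9 of 22 and 7 of 11 in the same order, with medians of 0.38, 0.33, -0.43 and 0.31, or 0.87, 0.85, 0.32 and -0.46 without estrogen+progesterone 2. For both hormones minus estrogen they were 7 of 15, 5 of 15, 4 of 22 and 6 of 11, with medians of -0.52, -0.19, -0.95 and 0.15, or -0.04, 0.19, -0.03 and 0.33 without that array.

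Markers of cells that make matrix were present in the captured tissue along with neuronal and glial ones. Of 9 endothelial markers on the array, 6 and 2 were above the floor with both hormones, 7 and 7 with estrogen, and 3 and 4 with placebo. Their summed signals were 1602 and 1782, 977 and 1107, and 1470.01 and 2040 in the same order. Summed as multiples of the floor, they gave 21.4 and 6.30, 32.6 and 21.4, and 6.81 and 9.24. Estrogen thus lay below placebo in summed signal and above it in multiples of the floor. Summed signals include background and depend on the scaling of each array. KDR and FLT1 were below the floor on all 6 arrays. Of 7 pericyte, smooth muscle and fibroblast markers 6 and 3 were above it with both hormones, 6 and 7 with estrogen, and 3 and 3 with placebo, with summed signals of 3627 and 1561, 6892 and 3821, and 1573 and 1634. Of 6 astrocyte markers 6 and 4, 6 and 6, and 5 and 5 were above it, with summed signals of 58884.5 and 2965, 52069 and 62627, and 17084 and 16054. Of 9 microglial markers 7 and 4, 8 and 8, and 7 and 7 were above it, with summed signals of 4630 and 2214, 3257 and 2818, and 2777 and 3527. The 3 general neuron markers on the array numbered 3 and 2 above it with both hormones, 3 and 3 with estrogen, and 3 and 3 with placebo, with summed signals of 15706 and 1064, 17787 and 21165, and 3481 and 6481. Both oligodendrocyte markers on the array were above it on all 6 arrays. Their summed signals were 48277 and 2349 with both hormones, 34940 and 51122 with estrogen, and 32403 and 45620 with placebo. In bulk samples fewer cells of a type and less RNA per cell cannot be told apart. The serotonin neuron markers on the array were TPH2, FEV, SLC18A2, GCH1 and HTR1A. Above the floor were 3 and 2 of the 5 with both hormones, 4 and 5 with estrogen, and 2 and 3 with placebo. Their summed signals were 825 and 995, 1095 and 643, and 1199 and 1267 in the same order.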

How the data were processed

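Values deposited by the authors are linear intensities, 1 for each probe set on each array. The labels' protocols record a Qiagen column for RNA and a biotin label. After 2% was trimmed from both ends, the arrays had means near 200, which shows a scaling of each array before deposit. Neither summarization software nor genome build is given in the sources used here, so no positions are printed. Sample titles gave the groups and replicate numbers.

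The platform annotation named the probe sets; 137 of the 141 member probe sets matched the RefSeq gene table by gene number and 0 symbols changed. The offset before log2 was 16, followed by quantile normalization. Controls were dropped, and the filter kept the upper part by mean, from the 50th percentile (26383 probe sets). Group means were estimated from the 6 arrays together in R 4.3.3 (limma 3.58.1; 3 residual degrees of freedom). Tests were two-sided, with Benjamini-Hochberg adjustment over all probe sets tested and a threshold of 0.05, and standard errors are moderated. No exact permutation test was run, since 2 against 2 allows no p under 0.333. The procedure was tested on simulated data.

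The tested probe set of a gene with the highest mean stands for it. Named genes were, per comparison and direction, up to 8 of smallest unadjusted p whose groups did not overlap and whose log2 difference reached 1 in size; 17 genes whatever their values (of 19 listed); and those with a probe set above the floor on all 6 arrays. Further genes named beside them, and second probe sets, were picked after their values were seen to complete a class. A bound ("at least N-fold") sets the brighter group's mean against the higher of floor and measured value on each array of the dimmer group, after normalization, with no allowance for spread between animals. Alternatives changed the offset, the normalization, the filter, the arrays, a replicate block, the prior and array weights. Members, lists and rules were chosen with earlier results of these data known.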

Additional observations from a re-analysis of the deposited data

How the results depend on the processing

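Limma called 0 probe sets under all planned settings in all comparisons, with 2 exceptions. With array weights it called 434 for estrogen minus placebo, 1 of them a member. Leaving out 1 array gave 0 to 0 calls for estrogen minus placebo and for both hormones minus placebo, and 0 to 4200 for both hormones minus estrogen, 0 to 10 of them members. The highest values came without estrogen+progesterone 1, where COL25A1 at 4.49, COL5A2 at -4.61 and ITGB3 at 4.47 passed with adjusted p of 0.0352, 0.0323 and 0.0331 from limma.

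At an unadjusted p under 0.05, limma counted 2065, 870 and 464 probe sets for estrogen minus placebo, both hormones minus placebo and both hormones minus estrogen. Over the settings these ran from 421 to 5231, from 244 to 6542 and from 122 to 10207. For estrogen minus placebo 1211 of the 2065 were above 0, against 1115 of 4192 without normalization and 4269 of 4541 with median-centred arrays. Deviations from group means of arrays with the same replicate number correlated at -0.03, -0.06 and 0.08, so the numbers share only a label. With the number as a block (replicate block) limma called 0 probe sets and 0 members in each comparison, and counted 2072, 808 and 765 at an unadjusted p under 0.05.

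The median of the member genes was 0.24 for estrogen minus placebo, against 1.48 with median-centred arrays, and from -0.08 to 0.35 over the fits without 1 array. For both hormones minus placebo it was 0.02, against -0.53 with the filter at the 75th percentile, which leaves 24 genes, and ran from -0.43 to 0.41. For both hormones minus estrogen it was -0.61 and ran from -1.12 to 0.13.

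Of the named genes' values for estrogen minus placebo, median-centred arrays reversed BCAN to 0.99, COL11A1 to 0.26, COL11A2 to 0.51, COL18A1 to 1.73, COL28A1 to 0.12, COL9A2 to 1.06, COL9A3 to 0.92 and VCAN to 0.044. Without normalization COL18A1 stood at 0.48. Other probe sets of the same gene reversed BCAN to 3.04, COL11A2 to 0.56, COL14A1 to -0.22 and -2.55, ITGB4 to -1.09, ITGB8 to -0.92 and VCAN to 0.34. They also reversed COL14A1 for both hormones minus placebo, to -0.43 and -1.43, and COL5A2 for both hormones minus estrogen, to 0.27 and 0.71. With 1 array left out COL28A1 ran from -0.81 to 0.74, ITGA2B from -2.66 to 0.34, ITGB2 from -0.24 to 2.32 and LAMC1 from -0.19 to 0.67 for estrogen minus placebo. Beyond centring, the cause of these reversals was not tested. The signal over background on the low-signal arrays limits every comparison with placebo.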
